A study of Homo sapiens with 6 samples.

Results

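Kruppel-like factors other than KLF5 were followed in LoVo cells, an established human colon adenocarcinoma line. The 10 genes are KLF2, KLF3, KLF4, KLF6, KLF7, KLF9, KLF10, KLF11, KLF13 and KLF16, picked by gene symbol from the 22496 symbols of the deposited lists, and each of the 10 was listed in every library. The data are 6 poly-A RNA libraries, 3 labelled SHARPIN knockout and 3 labelled non-target, the control genotype of the same line. SHARPIN helps to assemble linear ubiquitin chains, and the series asks how its loss changes gene expression. Nothing in the labels says how the knockout was made, whether it is 1 clone, or whether the replicates were separate cultures, so the spread between libraries may be technical. The 10 genes were listed with results of this comparison already known, and the reason for leaving out the other expressed family members is not stated. The differences between knockout and non-target are therefore given for them as a description, without p-values, and support nothing about the family.

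Kruppel-like factors are transcription factors with a conserved block of zinc fingers at the C-terminal end, which binds GC boxes and CACCC elements in DNA, and with variable N-terminal parts that recruit cofactors. KLF2, KLF4, KLF6 and KLF7 belong to a group that mostly activates through acetyltransferases, KLF3 represses through the corepressor CtBP, and KLF9, KLF10, KLF11, KLF13 and KLF16 bind the corepressor Sin3A. In the gut, KLF4 is known from differentiated surface cells and goblet cells, where it restrains the cell cycle, and KLF5 from dividing crypt cells.

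Expression is in FPKM, fragments scaled to the length of the transcript and to the mapped fragments of the library, as the authors deposited it. The fragments behind a library, estimated from the smallest steps between low values, numbered 21300000 to 22200000 in knockout and 21100000 to 22500000 in non-target libraries. Pearson correlations of log2(FPKM + 1) across genes were 0.946 to 0.997 for pairs of 1 genotype and 0.912 to 0.940 for pairs of different genotype, over the genes tested below. The 0.997 was that of non-target replicates 2 and 3. With these averaged as 1 replicate, 945 of the 13092 genes tested were called, against 1597 with all libraries. KLF4, KLF9 and KLF13 were the 3 of the 10 that were called in each of these fits. SHARPIN transcript stood at 7.55, 11.9 and 18.0 FPKM in knockout replicates 1, 2 and 3, against 11.9, 13.9 and 12.9 FPKM in non-target replicates 1, 2 and 3. The groups overlapped (log2 fold change -0.12 ± 0.26, SE; limma, adjusted p = 0.827), and since a frameshift need not lower the transcript, this level does not check the labels. The colon epithelial markers EPCAM, KRT8, KRT18, CDH1 and CDX2 had group means from 18.8 to 3200 FPKM, while the brush border protein VIL1 was low, at 0.510 ± 0.187 FPKM in knockout and 2.39 ± 0.395 FPKM in non-target (SD, n = 3 each). Of 9 markers of blood, endothelial and fibroblast cells, 8 were listed in at least 1 library and CD3E was at 0 in every library. Their summed level was 0.407, 0.105 and 0.132 FPKM in knockout replicates 1, 2 and 3, against 14.0, 0.927 and 0.904 FPKM in non-target replicates 1, 2 and 3. Most of the sum in non-target replicate 1 was the fibrillar collagens COL1A1, at 6.6 FPKM, and COL1A2, at 6.12 FPKM, and COL1A2 was at 0 in non-target replicates 2 and 3.

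The start regions of the 3 factors that differed most are shown for the GC boxes and CACCC elements that the family itself binds. RefSeq windows (build GRCh38.p14) run from 250 bases before to 50 after an annotated start, 5′ to 3′ on the gene's strand. KLF4 lies at chr9:107489720-107490019 on the minus strand, KLF9 at chr9:70414608-70414907 on the minus strand and KLF13 at chr15:31326585-31326884 on the plus strand. Capitals mark the GC box (GGGCGG), the CACCC element (CACCC) and the E-box (CACGTG), read on both strands. The E-box is marked in addition and is not among the family's elements named above.
KLF4: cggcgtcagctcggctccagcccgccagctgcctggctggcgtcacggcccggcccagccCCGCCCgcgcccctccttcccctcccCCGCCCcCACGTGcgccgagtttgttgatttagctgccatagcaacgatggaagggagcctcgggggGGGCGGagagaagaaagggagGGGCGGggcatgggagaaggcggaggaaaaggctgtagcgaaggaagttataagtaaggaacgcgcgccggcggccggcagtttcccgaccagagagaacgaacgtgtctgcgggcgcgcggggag
KLF9: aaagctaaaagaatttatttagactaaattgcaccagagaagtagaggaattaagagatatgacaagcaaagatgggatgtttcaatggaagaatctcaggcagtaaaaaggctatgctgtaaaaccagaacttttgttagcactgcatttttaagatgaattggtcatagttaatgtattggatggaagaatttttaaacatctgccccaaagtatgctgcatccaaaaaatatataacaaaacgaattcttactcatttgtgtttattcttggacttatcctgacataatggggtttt
KLF13: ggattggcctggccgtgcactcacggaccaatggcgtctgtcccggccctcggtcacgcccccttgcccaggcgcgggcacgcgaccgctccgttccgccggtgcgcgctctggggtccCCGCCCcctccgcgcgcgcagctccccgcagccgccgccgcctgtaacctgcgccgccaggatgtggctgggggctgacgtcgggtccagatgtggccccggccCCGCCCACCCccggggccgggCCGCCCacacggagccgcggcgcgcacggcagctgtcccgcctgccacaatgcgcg
The KLF4 window held 4 GC boxes and 1 E-box and was 69% G or C. The KLF13 window held 3 GC boxes and 1 CACCC element, which shares bases with a GC box, and was 78.3% G or C. The KLF9 window held none of these letters and was 32.7% G or C, lower than all but 2.36% of the 35116 windows in the table, whose median was 58.7%. Over all windows of this length, 45% held a GC box, 59.9% a CACCC element and 7.26% an E-box. Of the 10 factors, 8 had windows that were read, 12 in all (4 for KLF7 and 2 for KLF11). A GC box stood in 8 of the 12 windows, a CACCC element in 5, an E-box in 4 and the cAMP response element (TGACGTCA) in 1, that of KLF11, against 1.85% of all windows. None of the 12 held the AP-1 element TGACTCA, which 4.95% of all windows did. A match describes the letters only. No window was read for KLF3 or KLF10, so the counts leave them out and say nothing about their start regions.

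KLF4 and KLF9 were higher and KLF13 was lower in knockout libraries, and the other 7 factors were not called. The call is that of a fit over the 13092 genes that reached 1 FPKM in 3 or more libraries (limma on log2(FPKM + 1), adjusted p under 0.05). All 10 factors passed that filter on low values. The fit called 12.2% of all genes, 6.26% as higher and 5.93% as lower in knockout, and among the 10 factors it called 2 as higher and 1 as lower. The libraries of the groups did not overlap for 4 of the 10, KLF3, KLF4, KLF9 and KLF13, against 32.1% of all genes tested. The median log2 fold change of the 10 was -0.03, and that of all genes 0.02. In bulk RNA, fewer cells of a type and less RNA per cell cannot be told apart.

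**Figure D1:**
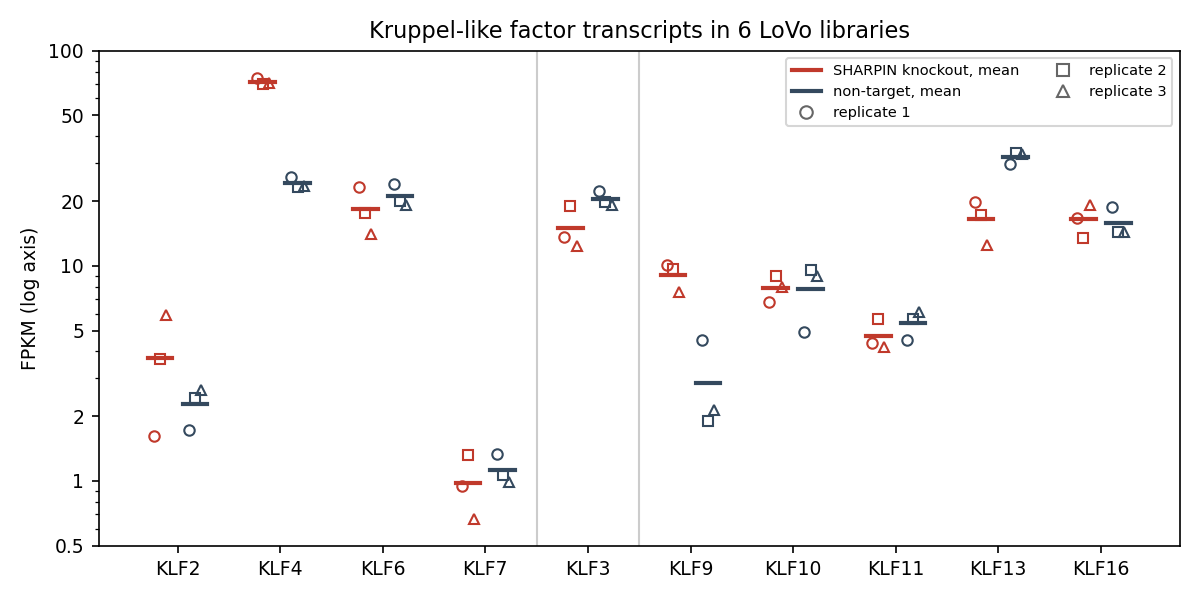
FPKM (log axis) of each of the 10 factors in each library, with SHARPIN knockout to the left of non-target; symbols mark the replicate number and the bars are group means of 3 libraries, and grey lines part the activating, CtBP-binding and Sin3-binding groups. KLF4 stands near 70 FPKM in knockout against 23.3 to 26.0 FPKM in non-target, and KLF13 at 12.5 to 19.9 FPKM against 29.6 to 33.4 FPKM.

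Among the activating factors KLF4 stood apart. KLF4 (chromosome 9, 110247133 to 110252763, minus strand, GRCh37) inhibits the cell cycle in intestinal epithelium and is also one of the factors used to reprogram cells to pluripotency. Its level was 74.6, 70.0 and 70.7 FPKM in knockout replicates 1, 2 and 3, against 26.0, 23.3 and 23.6 FPKM in non-target replicates 1, 2 and 3. Every knockout library lay above every non-target library. In FPKM the libraries of a group were close together, with a coefficient of variation of 3.44% in knockout and 6.13% in non-target. The FPKM of all genes came to 522919 in knockout replicate 3, against 425032 and 416852 in knockout replicates 1 and 2. With equal totals the knockout values of KLF4 would lie further apart. The ratio of the means was 2.95 and the log2 fold change 1.53 ± 0.15 (SE, n = 3 each). Exons of KLF4 overlap an unnamed locus on the opposite strand in the annotation, and the sources used here do not say whether the authors' counting used strand.

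KLF2, KLF6 and KLF7 were not called. KLF2 (chromosome 19, 16435637 to 16439496), known for keeping endothelial cells and T cells quiescent, stood at 1.62, 3.68 and 5.89 FPKM in knockout replicates 1, 2 and 3, against 1.72, 2.44 and 2.65 FPKM in non-target replicates 1, 2 and 3. Knockout replicate 1 was the lowest of all 6 libraries and knockout replicate 3 the highest, so the groups overlapped (log2 fold change 0.43 ± 0.32, SE). Without knockout replicate 1 the log2 fold change was 0.81 and KLF2 was called, without knockout replicate 3 it was 0.11, and with the trend on G and C content and transcript length removed 0.24. KLF6 (chromosome 10, 3818188 to 3827473), a growth suppressor that is mutated in some carcinomas, averaged 18.3 ± 4.58 FPKM in knockout and 21.1 ± 2.59 FPKM in non-target (SD, n = 3 each). Of its knockout values, 23.2, 17.6 and 14.1 FPKM, that of replicate 1 lay within the non-target range of 19.2 to 24.1 FPKM. KLF7 (chromosome 2, 207938861 to 208038580), known from neurons and from fat cells, was the lowest of the 10 in both groups. It ranged from 0.667 to 1.32 FPKM in knockout and from 0.984 to 1.34 FPKM in non-target. At this level the pseudocount of 1 shrinks a fold change, and the difference between KLF7 means was within the SD of the knockout libraries.

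KLF3, the CtBP-binding repressor (chromosome 4, 38665818 to 38703138), was lower on average in knockout but not called. It stood at 13.6, 18.9 and 12.3 FPKM in knockout replicates 1, 2 and 3, against 22.2, 19.8 and 19.1 FPKM in non-target replicates 1, 2 and 3. The groups did not overlap, but knockout replicate 2 and non-target replicate 3 were almost level. The log2 fold change was -0.44 ± 0.19 (SE), and KLF3 was called lower when the replicate number entered as a block, a fit that called 25.3% of all genes. The value was -0.11 with array weights, by which limma weights libraries according to how closely they follow the fit. Knockout replicate 2 then had a weight of 2.391, against 0.177 and 0.236 for knockout replicates 1 and 3. Non-target replicates 1, 2 and 3 had weights of 0.294, 3.599 and 9.469. With the trend on G and C content and transcript length removed, the log2 fold change of KLF3 was -0.29. The annotated antisense gene KLF3-AS1, which shares exonic bases with KLF3, stood at 3.63, 2.12 and 0.950 FPKM in knockout replicates 1, 2 and 3, against 2.17, 2.34 and 2.39 FPKM in non-target replicates 1, 2 and 3.

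The Sin3-binding factors went in both directions. KLF9 (chromosome 9, 72999520 to 73029573, minus strand), a target of glucocorticoid and thyroid hormone receptors, stood at 10.1, 9.63 and 7.52 FPKM in knockout replicates 1, 2 and 3, against 4.5, 1.90 and 2.13 FPKM in non-target replicates 1, 2 and 3. No knockout library was below any non-target library, but non-target replicate 1 held more than either of the other non-target libraries. The ratio of the means was 3.20 and the log2 fold change 1.44 ± 0.26 (SE). Non-target replicate 1 was also the library with the most COL1A1 and COL1A2 transcript, and without it the log2 fold change of KLF9 was 1.73.

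KLF13 (chromosome 15, 31619038 to 31727868, plus strand), a close relative of KLF9 that is known from T cells and heart, was the most abundant of the 10 in non-target libraries. It stood at 19.9, 17.3 and 12.5 FPKM in knockout replicates 1, 2 and 3, against 29.6, 33.4 and 33.1 FPKM in non-target replicates 1, 2 and 3. Every knockout library lay below every non-target library, with a ratio of means of 0.517 and a log2 fold change of -0.93 ± 0.19 (SE). The knockout libraries spread more, with a coefficient of variation of 22.7%, against 6.67% in non-target.

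KLF10, KLF11 and KLF16 were not called. KLF10 (chromosome 8, 103661012 to 103667953) and KLF11 (chromosome 2, 10182976 to 10194963) are early response genes of TGF-beta. KLF10 stood at 6.80, 8.95 and 7.99 FPKM in knockout replicates 1, 2 and 3, against 4.93, 9.56 and 8.98 FPKM in non-target replicates 1, 2 and 3. In both groups the replicate 1 library was the lowest, and the means, 7.91 and 7.82 FPKM, were nearly the same in knockout and non-target. The log2 fold change of KLF10 was 0.05 ± 0.24 (SE), and it was -0.21 without non-target replicate 1. KLF11 averaged 4.74 ± 0.794 FPKM in knockout and 5.42 ± 0.815 FPKM in non-target (SD, n = 3 each), with replicate 2 of the knockout within the non-target range. KLF16 (chromosome 19, 1852398 to 1863578), a regulator of metabolic genes, averaged 16.5 ± 2.84 FPKM in knockout and 15.8 ± 2.54 FPKM in non-target. Its transcript has the highest share of G and C among the 10, 67.8%, and its log2 fold change of 0.05 ± 0.19 was -0.23 with the trend on G and C content and transcript length removed. A difference that missed the threshold does not show that these levels were equal.

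**Figure D2:**
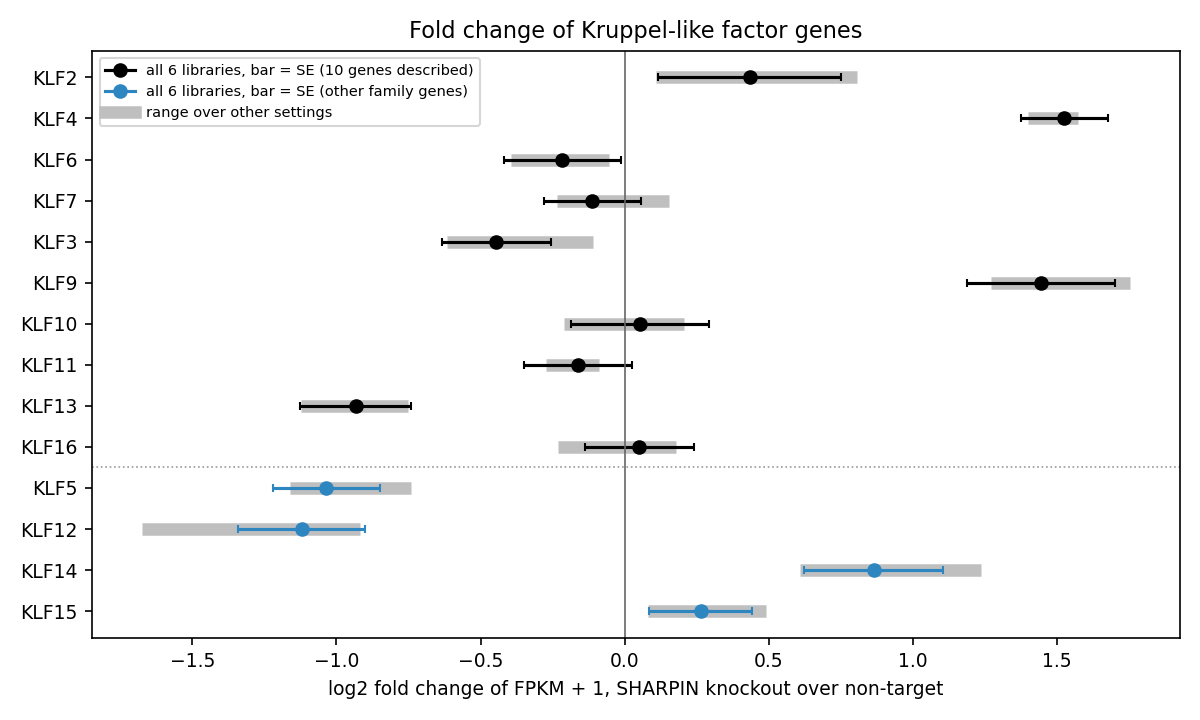
Log2 fold change of FPKM + 1, SHARPIN knockout over non-target, for the 10 factors (black) and for 4 other measured family genes (blue); points and bars give the value and SE with all 6 libraries, and grey bands the range over the other settings. The bands of KLF4, KLF9 and KLF13 stay on 1 side of 0, at 1.40 to 1.57, 1.27 to 1.75 and -1.12 to -0.75, whereas those of KLF7, KLF10 and KLF16 cross it.

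The order of the 10 factors by FPKM differed between the groups. In knockout libraries KLF4 averaged 71.7 ± 2.47 FPKM (SD, n = 3), and KLF6, KLF13, KLF16 and KLF3 followed at 18.3, 16.6, 16.5 and 14.9 FPKM, neighbours whose libraries overlapped. In non-target libraries KLF13 led at 32.0 ± 2.14 FPKM, without overlap with KLF4 at 24.3 ± 1.49 FPKM, and KLF4, KLF6 and KLF3 overlapped from one to the next. KLF9 ranked 6 of 10 in knockout and 8 of 10 in non-target, where its libraries overlapped with those of KLF2. KLF10, KLF11, KLF2 and KLF7 stood in this order in both groups. The summed level of the 10 was 172, 167 and 155 FPKM in knockout replicates 1, 2 and 3, against 138, 132 and 130 FPKM in non-target replicates 1, 2 and 3. KLF4 made up 43.4%, 42.0% and 45.6% of that sum in knockout, against 18.9%, 17.7% and 18.1% in non-target replicates 1, 2 and 3. The other 9 together were lower in knockout, at 92.7 ± 7.26 FPKM, than in non-target, at 109 ± 2.54 FPKM (SD, n = 3 each), again without overlap. KLF13 accounted for 8.1% to 11.6% of the sum in knockout and for 21.5% to 25.4% in non-target. The FPKM of all genes together came to 522919 in knockout replicate 3 and to 416852 to 431264 in the other libraries. With equal totals, the sum of the 10 in knockout replicate 3 would be lower relative to the other libraries. Its place above every non-target library is therefore given for FPKM only.

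**Figure D3:**
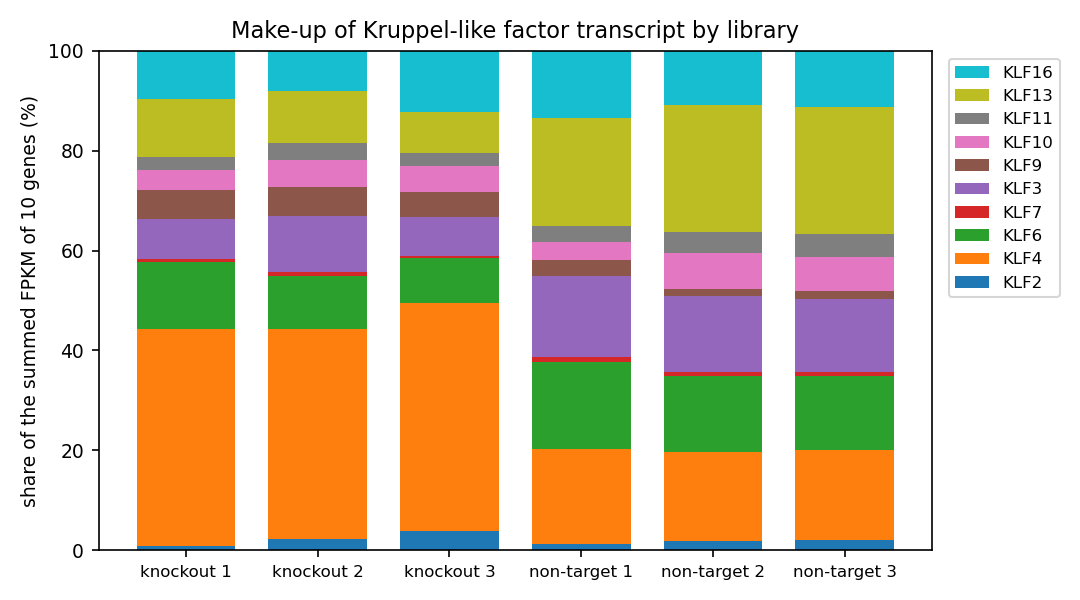
Share of the summed FPKM of the 10 factors held by each factor, as stacked bars that add to 100%, for each knockout and each non-target library. The KLF4 part spans 42.0% to 45.6% in knockout and 17.7% to 18.9% in non-target, and the KLF13 part is smaller in knockout.

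Ratios between factors of 1 library do not depend on how libraries are scaled to each other. KLF4 over KLF5 was 1.36, 1.14 and 1.57 in knockout replicates 1, 2 and 3, against 0.199, 0.218 and 0.244 in non-target replicates 1, 2 and 3. KLF4 transcript thus exceeded that of KLF5 in every knockout library and in no non-target library. KLF5 itself stood at 53.8 ± 8.22 FPKM in knockout and 111 ± 17.3 FPKM in non-target (SD, n = 3 each; log2 fold change -1.03, limma adjusted p = 0.00581). KLF9 over KLF13 was 0.508, 0.556 and 0.603 in knockout replicates 1, 2 and 3, against 0.152, 0.0568 and 0.0643 in non-target replicates 1, 2 and 3. KLF10 over KLF11 overlapped between the groups, at 1.56 to 1.90 in knockout and 1.09 to 1.68 in non-target.

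**Figure D4:**
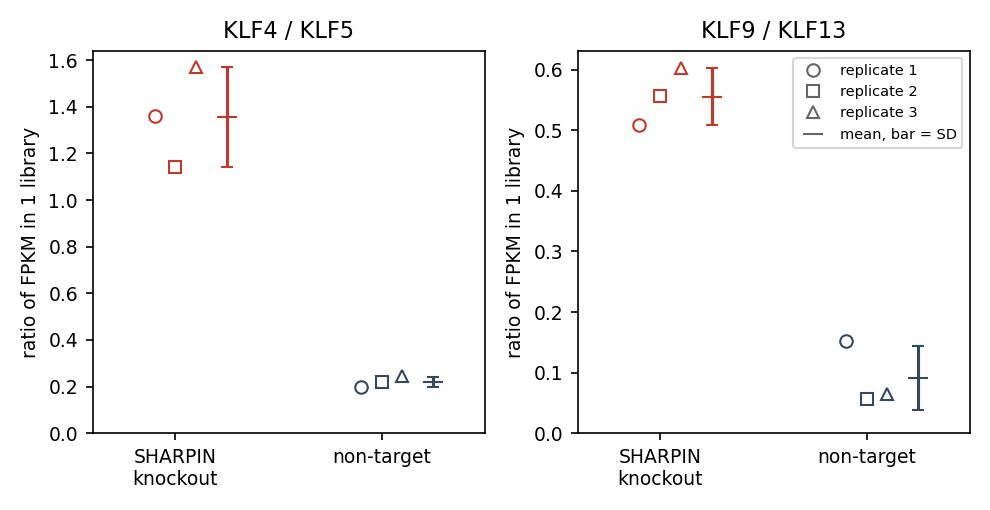
Ratio of KLF4 to KLF5 FPKM (left) and of KLF9 to KLF13 FPKM (right) within each library; symbols mark the replicate number, and the dash and bar give mean and SD over 3 libraries. The knockout ratios, 1.14 to 1.57 and 0.508 to 0.603, all lie above the non-target ratios, 0.199 to 0.244 and 0.0568 to 0.152.

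The 5 genes whose values, each centred on its own mean over the 6 libraries on the log2(FPKM + 1) scale, lay closest to those of KLF4 were HOXB6, CST7, PRF1, CDKN1A and HCN2, at Euclidean distances of 0.145, 0.147, 0.183, 0.209 and 0.248. HOXB6, a homeobox factor, averaged 94.8 FPKM in knockout and 33.3 FPKM in non-target. PRF1, the perforin of cytotoxic lymphocytes, was low, at 3.62 FPKM in knockout and 0.538 FPKM in non-target. KLF4 was used because its log2 fold change was the largest of the factors, so genes with a similar group difference lie close to it. These 5 genes had log2 fold changes of 1.45 to 1.59, and shared regulation was not tested.

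Of the rest of the family, 17 genes (8 other Kruppel-like and 9 SP factors), 15 were listed and 11 tested. Of these 11, 2 rose, 2 fell and 7 did not pass, against 12.2% of all genes called, and the median log2 fold change was -0.01. Beside KLF5, KLF12 fell: this CtBP-binding repressor, in structure a relative of KLF3, stood at 1.06 ± 0.470 FPKM in knockout and 3.46 ± 0.879 FPKM in non-target (SD, n = 3 each; log2 fold change -1.12, limma adjusted p = 0.00935). The Sin3-binding KLF14 rose, at 3.20 ± 1.42 FPKM in knockout and 1.24 ± 0.240 FPKM in non-target (log2 fold change 0.86, adjusted p = 0.0459), and so did SP6, a factor of tooth and skin development, at 3.01 ± 0.516 FPKM in knockout and 1.5 ± 0.521 FPKM in non-target (log2 fold change 0.69, adjusted p = 0.0499). Each of KLF14 and SP6 lost the call in 5 of the 6 fits that left out 1 library. KLF15, SP1, SP2, SP3, SP4, SP5 and SP8 did not pass. With a replicate block, under which 25.3% of all genes were called, 6 of the 11 passed, SP1 being called lower (log2 fold change -0.55, adjusted p = 0.00893, limma) and SP5 higher (0.61, adjusted p = 0.00466). The genes KLF1, KLF8, SP7 and SP9 stayed at or below 0.265 FPKM.

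The cofactors and inputs of these factors were called at shares near the 12.2% of all genes tested. Of 22 cofactors and ubiquitin ligases, 2 rose, 0 fell and 20 did not pass in limma (4 had an unadjusted p under 0.05), and the median log2 fold change was 0.07. The histone deacetylase HDAC2 stood at 31.1 ± 3.21 FPKM in knockout and 18.1 ± 0.892 FPKM in non-target (adjusted p = 0.0129, limma), and the ubiquitin ligase SMURF2 at 26.0 ± 4.96 FPKM in knockout and 15.5 ± 0.434 FPKM in non-target (adjusted p = 0.0317). With a replicate block, under which 25.3% of all genes were called, 4 passed, 2 in each direction, and 0 passed without non-target replicate 2 or without non-target replicate 3 (3 had an unadjusted p under 0.05 in each). SMURF2 was also not called without knockout replicate 2 or without non-target replicate 1, which left 1 in each case. SIN3A, which the KLF9 and KLF13 proteins bind, stood at 5.44 ± 0.810 FPKM in knockout and 7.72 ± 0.596 FPKM in non-target (adjusted p = 0.140), and the CtBP genes CTBP1 and CTBP2 did not pass. Of 24 genes of known inputs, 0 rose, 3 fell and 21 did not pass (7 had an unadjusted p under 0.05), and the median log2 fold change was 0.09. With a replicate block 3 rose and 4 fell, against 25.3% of all genes called in that fit. MEF2C, a factor that drives KLF2 and KLF4 downstream of ERK5, stood at 1.18 ± 0.329 FPKM in knockout and 4.47 ± 0.770 FPKM in non-target (log2 fold change -1.33, adjusted p = 0.00158). The TGF-beta receptor TGFBR2 and the signal transducer SMAD3 had log2 fold changes of -1.0 and -0.80 (adjusted p = 0.00793 and 0.0440), SMAD3 without a call when any library but knockout replicate 1 was left out, while KLF10 and KLF11 were not called. The glucocorticoid receptor NR3C1 and its responsive genes FKBP5, TSC22D3 and PER1 did not pass (adjusted p of 0.230, 0.265, 0.511 and 0.685).

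Of 26 genes reported as targets of Kruppel-like factors, 21 were tested, of which 5 rose, 1 fell and 15 did not pass, against 6.26% of all genes called higher and 5.93% called lower. With a replicate block 7 rose and 2 fell, and that fit called 25.3% of all genes. Their median log2 fold change was 0.11. This list, like those of other family genes, cofactors and inputs, was chosen with earlier results of these data known. Counts and p-values of its genes are therefore given as a description. The cell cycle inhibitor CDKN1A and the keratins KRT4 and KRT19, which KLF4 is known to activate, rose by 1.48, 3.20 and 1.43 on the log2 scale (limma, adjusted p = 0.000390, 0.000223 and 0.00105). SMAD7, an inhibitor of TGF-beta signalling that KLF10 is known to repress, stood at 27.6, 28.0 and 29.5 FPKM in knockout replicates 1, 2 and 3, against 11.2, 11.6 and 11.1 FPKM in non-target replicates 1, 2 and 3 (log2 fold change 1.25, adjusted p = 0.000539). The goblet cell mucin MUC2 fell, to 1.26 ± 0.342 FPKM in knockout against 3.87 ± 1.52 FPKM in non-target (adjusted p = 0.0252), but was not called when replicate 2 or 3 of either group was left out. Cyclin D1 (CCND1), which KLF4 is known to repress and which is named here after its values were seen, stood at 168 ± 17.2 FPKM in knockout and 81.5 ± 7.13 FPKM in non-target (adjusted p = 0.00285). The enterocyte alkaline phosphatase ALPI, an activated target of KLF4, stayed at or below 0.091 FPKM in every library and was not tested.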

How the data were processed

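FPKM of poly-A RNA from 6 LoVo libraries were analysed. Per the labels' protocol, second strands were marked with dUTP and digested. Per the series' design text, the authors trimmed and filtered the reads, aligned them to hg19 with TopHat2 2.1.1 and took the deposited FPKM from STAR 2.7.10b. The counting rule, strand use in counting and the annotation release are not given in the sources used here. As FPKM scale with the mapped total of a library, a gene can shift when others change.

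A symbol absent from a library's list was given the value 0. Genes were tested with limma 3.58.1 under R 4.3.3 (intensity trend, robust empirical Bayes, two-sided, Benjamini-Hochberg over all 13092 genes, threshold 0.05) on log2(FPKM + 1), kept where 1 FPKM was reached in 3 or more libraries. The pseudocount understates changes of low genes. Means and SDs refer to FPKM. The procedure was tested on simulated data with independent normal noise and the SDs of the fit itself. Linked replicate numbers and near-identical libraries were not simulated, so that test does not cover them. Depth was estimated on genes with 1 annotated transcript as the step on which low values of FPKM times kilobases gather, which 89 to 125 of 840 to 977 values per library met within 2%. That is a minority of values, so fragments per gene were not reconstructed and neither a count model nor counting intervals were used. Gene positions, exons and base content are from GENCODE on GRCh37 (89% of symbols matched); promoter windows are from RefSeq on GRCh38.p14, and coordinates of the builds are not interchangeable.

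The members and lists were chosen with earlier results of these data known. Named genes are the 10 factors, SHARPIN, KLF3-AS1 and the markers, all tested family genes, up to 5 called genes with the largest change in each other list, and the 5 closest profiles to KLF4; other genes were named for their known link to a factor. Same-numbered libraries deviated together from their group means (correlations of 0.547, 0.309 and 0.331 for replicates 1, 2 and 3). A fit with the replicate number as a block was therefore run beside the main fit, which has no block. Knockout replicate 2 with non-target replicate 3, and knockout replicate 3 with non-target replicate 2, correlated about as closely, at 0.321 and 0.320, so the numbers 2 and 3 are not told apart. The labels do not say what a number stands for. Values come from the unblocked fit, and blocked ones are added where the call of a named gene or the count of a list changed.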

Additional observations from a re-analysis of the deposited data

How the results depend on the processing

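Of the 10 factors, 3 or 4 were called under each of the 19 other settings, and KLF4, KLF9 and KLF13 kept their direction and call in all 19, with log2 fold changes of 1.40 to 1.57, 1.27 to 1.75 and -1.12 to -0.75. The settings were a pseudocount of 0.1 or 0.5, TPM, median-ratio and quantile scaling, limma without trend or with array weights, a replicate block, a correction for base content and length, averaging the near-identical non-target replicates 2 and 3, omitting the filter or raising it to a mean of 5 FPKM, leaving out each library, and, added after seeing the data, leaving out both replicate 1 libraries. Outside these 3, KLF2 was called with array weights (0.38) and without knockout replicate 1 (0.81), and KLF3 was called with the replicate block (-0.44), which changed no other call among the 10. The cause of these shifts was not tested.

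The sign turned only for factors near 0. KLF7 was 0.15 with array weights and 0.030 with the base content correction (-0.23 to 0.0058 leaving out 1 library). KLF10 was -0.025 in TPM, -0.045 with array weights and -0.12 without both replicate 1 libraries (-0.21 to 0.21 leaving out 1 library). KLF16 was -0.036 in TPM, -0.052 after quantile normalization, -0.034 with array weights, -0.23 with the base content correction and -0.0093 with non-target replicates 2 and 3 averaged (-0.060 to 0.18 leaving out 1 library). SHARPIN was 0.12 without both replicate 1 libraries (-0.41 to 0.17 leaving out 1 library). SP2 was 0.055 with those non-target replicates averaged (-0.13 to 0.098 leaving out 1 library). SP3 and SP4 were 0.10 and 0.22 with array weights and 0.084 and 0.022 with the base content correction (-0.25 to 0.015 and -0.33 to 0.023 leaving out 1 library).

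Over all genes, 1597 were called, against 865 with a mean of at least 5 FPKM, 5269 with array weights, 3309 with the replicate block and 945 with non-target replicates 2 and 3 averaged (911 to 1970 leaving out 1 library, with 958 and 911 without non-target replicates 2 and 3). Of the 4 called among other family genes, 2 were left with no filter, 1 with a mean of at least 5 FPKM and 2 with the averaged replicates, and 8 were called with array weights (2 to 4 leaving out 1 library, with 2 when replicate 2 or 3 of either group was left out). The cofactors gave 2, against 1 with no filter, 8 with array weights, 4 with the block, 0 with the averaged replicates and 1 without both replicate 1 libraries (0 to 3 leaving out 1 library). The inputs gave 3, against 14 with array weights and 7 with the block (2 to 4), and the reported targets 6, against 12 with array weights (5 to 7). With 3 libraries a group and whole fragments not recovered, counting noise of the factors under 5 FPKM is not known.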
